A study of Mus musculus with 116 samples.

Results

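RAG-initiated joining of Vk segments to Jk1 was compared between mouse pro-B cells that lack both DNA ligase IV (Lig4) and Ku70 and cells that lack Ku70 alone. The members were the junction lists of 2 groups, chosen by their labelled genotype and clone: clone A1_1 (Emu-Bcl2, Lig4-/- Ku70-/-, here called double-null) and clone A1 (Emu-Bcl2, Ku70-/-, here called Ku70-null). Each group had 3 libraries, so 6 of the 116 samples of the series entered, with 24609 junctions (15135 Ku70-null and 9474 double-null). All cells were v-Abl-transformed pro-B lines carrying the Emu-Bcl2 transgene, and all were held in G1 for 96 h with 3 µM STI-571, which inhibits the v-Abl kinase. Each genotype was 1 clone, and how the clones were derived is not given in the sources used here, so clone and genotype cannot be told apart. No label says that libraries of a group came from separate cultures, so p-values measure only the spread between these libraries, which may be technical. The genotypes rest on the labels, because junctions in genomic DNA do not report Ku70 or Lig4.

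In a developing B cell the RAG recombinase cuts between an antigen receptor segment and its recombination signal sequence, a heptamer and nonamer separated by a spacer. Each cut leaves a coding end, closed as a hairpin, and a blunt signal end. Classical end joining binds ends with the Ku70-Ku80 heterodimer, opens the hairpins with Artemis and seals them with ligase IV and XRCC4. A hairpin nicked off its tip leaves a short overhang whose copy stays in the joint as palindromic (P) nucleotides. Joints made without this pathway usually lose more sequence and more often use microhomology. A Vk coding end joined to the Jk1 coding end is a coding joint, whereas a Vk signal end joined to the Jk1 coding end is a hybrid joint.

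Reads started from a primer in the bait, downstream of Jk1, and ran toward the Jk1 coding end. In the RefSeq annotation of GRCm38.p6, the build called mm10 in the submitters' processing notes, Igkj1 is a J segment at chr6:70722562-70722599, and its coding end is base 70722562. The bases that all measures of Jk1 loss count back from are shown first as the bait reads them, on the minus strand of chr6:70722562-70722601, with the last 4 bases in capitals. This stretch was identical in 72168 of 75002 wild-type reads that crossed it. The signal heptamer that follows it in uncut DNA lies at chr6:70722555-70722561. The final line is the strand that a P insert at Jk1 would copy, starting from the coding end.
Jk1 coding end: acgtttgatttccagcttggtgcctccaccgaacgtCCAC
Jk1 recombination signal heptamer: CACAGTG
palindrome of the Jk1 end: GTGGACGTTCGGTGG

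The commonest shared products show what an individual junction in these cells looked like. Of 10751 distinct joints over the 6 libraries, 9877 (91.9%) were seen in 1 library and 4 in all 6. Those 4 are printed with 20 bases of Jk1, the microhomology in capitals, and 20 bases of Vk.
Igkv4-58 coding joint: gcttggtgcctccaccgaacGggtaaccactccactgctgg
Igkv3-10 coding joint: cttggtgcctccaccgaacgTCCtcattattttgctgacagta
Igkv11-125 coding joint: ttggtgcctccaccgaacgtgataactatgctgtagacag
Igkv3-10 coding joint: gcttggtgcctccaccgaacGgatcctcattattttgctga
All 4 were coding joints with 2 to 5 bp lost from Jk1 and 3 to 7 bp lost from Vk, and their overlaps were 1, 3, 0 and 1 bp.

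The authors set every library of both groups to 167151 raw reads. Junctions numbered 3075, 5677 and 6383 in Ku70-null libraries 1, 2 and 3, and 1867, 3419 and 4188 in double-null libraries 1, 2 and 3. A share of 0 in the smallest library allows up to 0.161% (3 rows of its total). Reads carry no molecular identifiers, so rows are not independent molecules and such limits cover counting error only. Read names place the same-numbered library of each group on the same sequencing run, and differences are therefore also given within run. Libraries of a group shared 2.36% to 10.9% of their distinct joints, and no read name occurred in more than 1 library. The number of distinct joints per Vk segment differed between libraries of a group by no more than sampling noise in 4 of 6 pairs (chi-square p = 0.25 to 0.92). The other 2 pairs set Ku70-null library 1 against Ku70-null libraries 2 and 3, which it differed from beyond sampling noise (chi-square p = 0.00075 and 0.0042). The 3 libraries of each group were kept as separate replicates, since so few joints were shared.

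Junctions were fewer in the double-null libraries, but the difference was within the spread between libraries, which libraries of the same run shared. Per 100000 raw reads, the Ku70-null libraries held 1840, 3396 and 3819 junctions and the double-null libraries 1117, 2045 and 2506. The groups overlapped, since the lowest Ku70-null library lay under 2 double-null libraries. The log2 difference was -0.69 (two-sided exact permutation p = 0.3, adjusted 0.34 over 17 single measures; the smallest p for 3 against 3 libraries is 0.1). Within each of the 3 runs the double-null library was the lower one, by -0.72, -0.73 and -0.61 on the log2 scale (exact sign-flip p = 0.25, the smallest that 3 pairs allow). These run differences had an SD of 0.068, against 0.57 and 0.61 between the libraries of each group. Counting each distinct joint once brought the log2 difference to -0.45, with an exact permutation p of 0.5 (adjusted 0.531). That value ran from -0.84 without Ku70-null library 1 to -0.03 without double-null library 1.

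Both kinds of joint contributed. Coding joints numbered 1164, 2522 and 2678 per 100000 reads in Ku70-null libraries and 658, 1369 and 1584 in double-null libraries. Hybrid joints numbered 676, 875 and 1140 against 459, 676 and 920. Each overlapped between the groups, and each was lower in the double-null library of every run.

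For scale, the wild-type libraries of clone A (Emu-Bcl2) held 28196 to 31752 junctions per 100000 reads. The Lig4-/- libraries of clone A1, which keep Ku70, held 20.9 to 44.3, and the double-null clone with Ku70 added back held 27.5 to 44.9. The double-null libraries thus lay well above both groups that have Ku70 without ligase IV and below wild type, with no overlap.

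**Figure D1:**
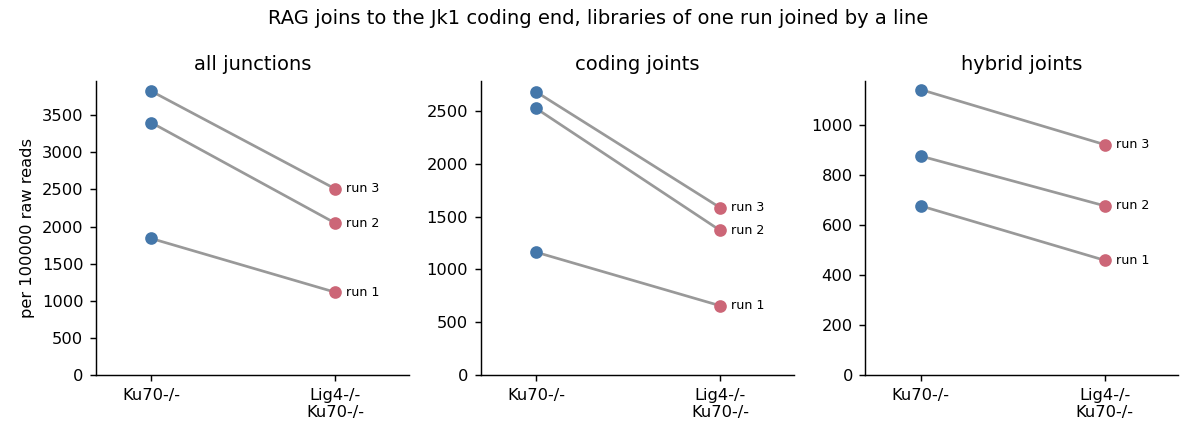
Junctions per 100000 raw reads (linear axes that start at 0 and differ between panels) for all junctions, coding joints and hybrid joints; each point is 1 library, and lines join the Ku70-null and double-null libraries of 1 sequencing run. Every line falls from left to right, while for all junctions the Ku70-null points (1840 to 3819) and the double-null points (1117 to 2506) overlap.

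Of the 17 single measures tested, 11 (64.7%) had no overlap between the groups. Each of those 11 had an exact permutation p of 0.1, the smallest the design allows, and an adjusted p of 0.155, so no single measure could pass 0.05. Lack of overlap is stated below with that limit.

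The share of hybrid joints was higher in double-null libraries within every run, but the groups overlapped. Hybrid joints are those read in the orientation opposite to the wild-type orientation of that Vk segment. They made up 36.7%, 25.8% and 29.9% of Ku70-null junctions and 41.1%, 33.1% and 36.7% of double-null junctions. The mean difference was 6.17 percentage points (exact permutation p = 0.3, adjusted 0.34), and the run differences were 4.33, 7.30 and 6.89. In wild-type clone A the same orientation made up 0.292% of junctions (mean of 3 libraries). The prey of these opposite-orientation junctions lay on the signal side of the Vk cut in 98.8% to 99.1% of cases in Ku70-null libraries and 97.7% to 98.8% in double-null libraries.

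The groups separated at Vk segments that rearrange by inversion and overlapped at those that rearrange by deletion. Of the 162 annotated Igkv segments, wild-type reads oriented 116, of which 68 join Jk1 by inversion and 48 by deletion. At inversional segments hybrid joints made up 43.3%, 34.3% and 38.5% in Ku70-null libraries and 51.6%, 43.5% and 46.5% in double-null libraries. Here the groups did not overlap, and the difference was 8.54 points (exact permutation p = 0.1). At deletional segments the shares were 20.7%, 9.48% and 11.6% against 18.6%, 16.3% and 17.8%. Those groups overlapped, with a difference of 3.68 points (exact permutation p = 0.4). Within runs that difference ranged from -2.03 to 6.86 points, and it was 7.05 points without Ku70-null library 1 and 1.46 points without Ku70-null library 2. The inversional minus deletional difference was itself 4.86 points larger in double-null cells, with no overlap (exact permutation p = 0.1). This split by orientation was chosen after its values were seen.

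At the Jk1 end, double-null joints were both more often uncut and more often deeply trimmed. Joints that kept every Jk1 base made up 0.325%, 0.511% and 0.439% of Ku70-null junctions and 1.98%, 1.17% and 2.08% of double-null junctions (67 and 164 rows). The lowest double-null library exceeded the highest Ku70-null library, and the mean difference was 1.32 points. These joints include those with a palindromic insert at an uncut Jk1 end, described below, and were not counted apart from them. Losses of more than 50 bp made up 17.3%, 16.9% and 17.8% against 23.9%, 24.8% and 23.6%, a difference of 6.79 points. Losses of 6 to 10 bp were lower, at 13.9%, 15.6% and 15.2% against 10.3%, 10.3% and 10.1%. They were not the only losses that fell, since joints at 16 bp were lower too, as given below. Neither this class nor that above 50 bp was among the planned measures. The median loss was 17, 16 and 16 bp in Ku70-null libraries and 19, 19 and 18 bp in double-null libraries. None of these overlapped between the groups.

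The extra loss came with the deepest class. Over junctions with at most 48 bp lost, the share above 10 bp was 65.3%, 63.3% and 64.6% in Ku70-null and 65.9%, 64.9% and 65.6% in double-null libraries, and the groups overlapped. Over all junctions that share was 71.7%, 69.8% and 71.2% against 74.3%, 73.9% and 74.1%, a difference of 3.18 points with no overlap. Loss could be followed to about 107 bp, where the bait ends, so longer losses are not in these lists.

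The shift in Jk1 loss had opposite signs in coding and hybrid joints. Among coding joints, more than 10 bp was lost in 66.7%, 66.9% and 66.8% of Ku70-null and 74.1%, 72.8% and 75.7% of double-null joints (7.38 points higher). Among hybrid joints it was 80.4%, 78.2% and 81.7% against 74.7%, 76.0% and 71.5% (a difference of -6.03 points). Neither pair of groups overlapped. The coding minus hybrid gap was -13.6, -11.3 and -14.9 points in Ku70-null cells and -0.616, -3.23 and 4.22 points in double-null cells. The test of that difference gave 13.4 points with no overlap (exact permutation p = 0.1), and the contrast was chosen after its values were seen.

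**Figure D2:**
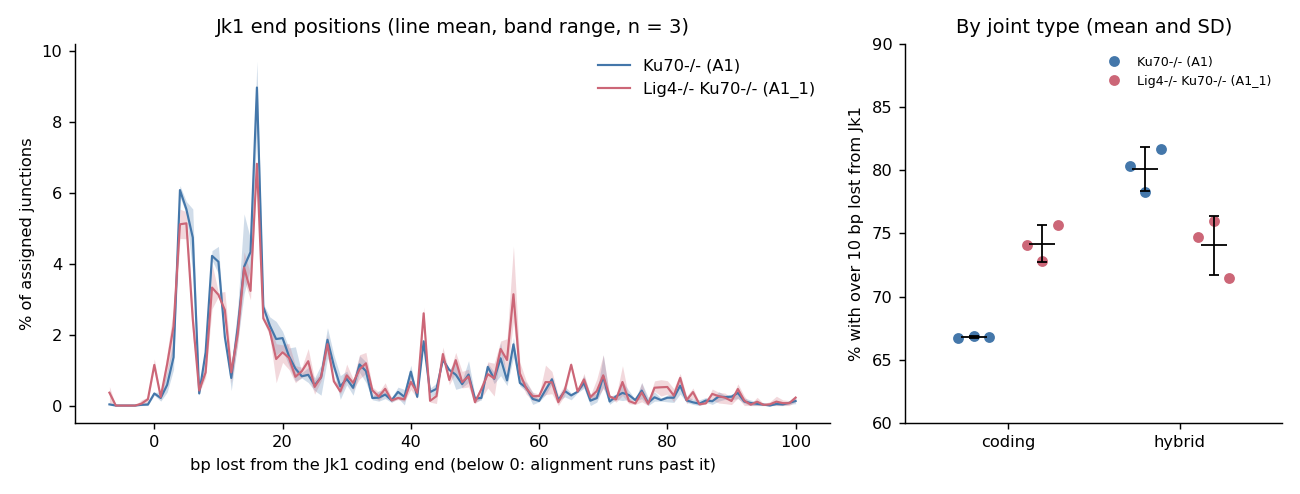
Left, percent of assigned junctions at each number of bases lost from the Jk1 coding end (values below 0 are alignments that run past it), as the mean line and the range band of 3 libraries per genotype. Right, percent of coding and of hybrid joints that lost over 10 bp (points are libraries, bars mean and SD, and the axis does not start at 0); the 2 kinds of joint lie apart in Ku70-null cells (66.8% and 80.1% on average) and together in double-null cells (74.2% and 74.1%).

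Single Jk1 positions were tested with limma over the 79 positions that held at least 50 junctions, with adjustment over all of them. Of these, 4 (5.06%) passed an adjusted p of 0.05, 2 higher and 2 lower in double-null cells, and 22 (27.8%) did not overlap. Exactly 0 bp was lost in 0.293%, 0.370% and 0.360% of Ku70-null and 1.07%, 1.05% and 1.31% of double-null junctions, a rise of 1.72 on the log2 scale (SE 0.33, limma adjusted p = 0.00738). Exactly 65 bp was lost in 0.163%, 0.352% and 0.345% against 1.12%, 1.23% and 1.10%, a rise of 2.04 (SE 0.39, limma adjusted p = 0.00738). The 65-bp position came from 4, 6 and 15 distinct joints in Ku70-null and 11, 19 and 30 in double-null libraries. The other 2 positions were lower.
Joints at 6 bp made up 3.71%, 4.97% and 5.55% against 2.73%, 1.93% and 2.63% (log2 difference -0.96, SE 0.18, limma adjusted p = 0.00738). Those at 16 bp, the commonest loss, made up 9.37%, 7.84% and 9.72% against 6.91%, 6.84% and 6.71% (log2 difference -0.39, SE 0.080, limma adjusted p = 0.00953). Without double-null library 2, or without library 3, 0 positions were called in limma, with the fold changes of these 4 in the same direction. Counting each distinct joint once gave 10.

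At the Vk coding end, double-null joints had a lower median loss and fewer losses over 10 bp, and complete ends were more frequent, as at Jk1. The median loss was 18, 16 and 16 bp in Ku70-null and 13, 13 and 13 bp in double-null libraries. More than 10 bp was lost in 67.0%, 64.9% and 66.1% of Ku70-null coding joints and in 57.3%, 57.8% and 57.7% of double-null coding joints, a difference of -8.44 points. Complete Vk coding ends made up 1.80%, 1.45% and 1.59% against 2.00%, 3.71% and 3.81% (167 and 208 rows), and losses of 1 to 5 bp 12.5%, 12.5% and 12.3% against 15.5%, 15.8% and 16.8%. All double-null libraries lay on 1 side of all Ku70-null libraries in each of these measures. The complete class includes coding joints whose prey began outside the coding end, on the signal side. More than 10 bp outside lay 9, 23 and 26 such rows in Ku70-null and 1, 4 and 9 in double-null libraries. Joints with a palindromic insert at an uncut Vk end, described below, also belong to it, and neither kind was counted apart.

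Vk signal ends in hybrid joints showed no such separation. More than 10 bp was lost from them in 63.3%, 67.6% and 67.8% of Ku70-null and 63.5%, 66.5% and 64.6% of double-null hybrid joints (difference -1.37 points, exact permutation p = 0.6). The groups overlapped. The coding minus signal gap differed between the genotypes by -7.08 points, with no overlap (exact permutation p = 0.1). This contrast was not among the planned measures.

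Taking both ends of each coding joint together, the loss was more one-sided in double-null cells. Joints that lost over 10 bp from Jk1 alone made up 11%, 12.8% and 12.0% in Ku70-null and 25.8%, 22.6% and 25.4% in double-null libraries, a difference of 12.7 points. Joints that lost over 10 bp from Vk alone made up 11.3%, 10.8% and 11.3% against 9.0%, 7.60% and 7.44%. Joints with both ends within 10 bp made up 22.0%, 22.3% and 22.0% against 16.9%, 19.6% and 16.9%. These classes of joint were not among the planned measures. The summed loss had medians of 35, 34 and 35 bp against 38, 36 and 39 bp. Across coding joints within a library, the log2 losses at the 2 ends correlated with r = 0.62, 0.61 and 0.61 in Ku70-null cells and 0.42, 0.45 and 0.45 in double-null cells. These r values are descriptions over joints that share a library and a bait, and joints are not replicates.

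**Figure D3:**
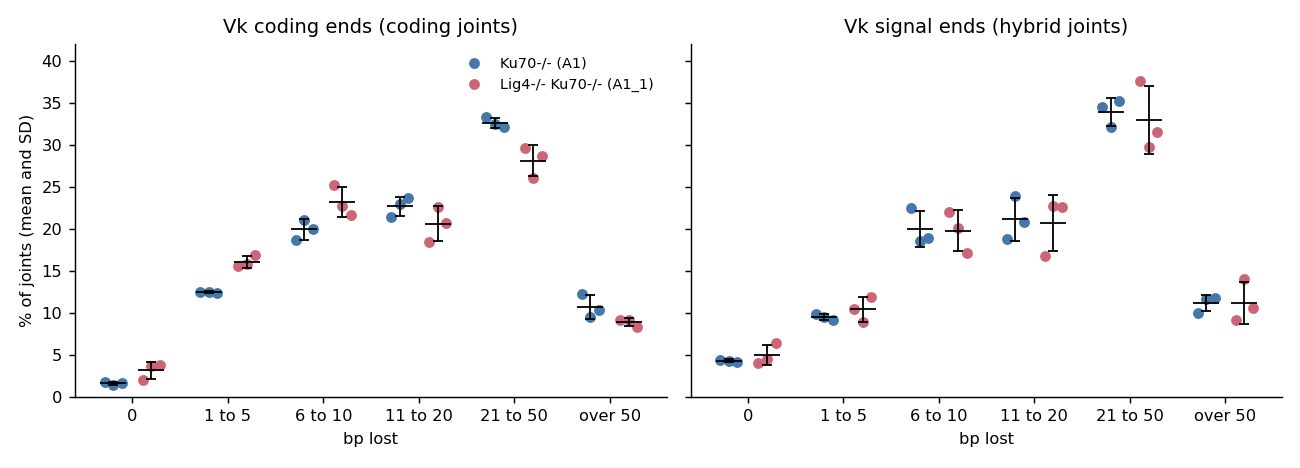
Bases lost from the Vk coding end of coding joints (left) and from the Vk signal end of hybrid joints (right), as percent of joints of that kind in each class of loss; points are libraries and bars mean and SD (n = 3). At the coding end the double-null libraries lie higher from 1 to 5 bp (15.5 to 16.8% against 12.3 to 12.5%) and lower from 21 to 50 bp, while at the signal end the groups overlap in both classes.

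Microhomology was slightly more frequent and longer in double-null joints. Microhomology is an overlap of at least 2 bp between the Jk1 and Vk alignments on a read, that is, bases that either end could have supplied. Its share was 18.5%, 17.5% and 18.0% in Ku70-null and 21.3%, 19.4% and 21.5% in double-null libraries, 2.70 points higher. The mean overlap over joints without an insertion was 0.784, 0.773 and 0.780 bp against 0.913, 0.877 and 0.928 bp. Direct joints without overlap or insertion made up 54.4%, 55.2% and 53.0% against 48.3%, 52.1% and 48.5%. Each of the 3 measures separated the groups. Over junctions with at most 48 bp lost from Jk1, the shares were 18.0%, 17.2% and 17.6% against 20.5%, 17.9% and 20.9%, and here the groups overlapped (difference 2.13 points).

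Longer overlaps showed the same direction. Overlaps of 5 bp made up 0.846%, 0.440% and 0.517% of Ku70-null and 0.964%, 1.46% and 1.10% of double-null junctions, and those of 6 bp or more 0.911%, 1.34% and 1.28% against 1.82%, 1.75% and 1.50%. The 6-bp overlap CTCCAC in the capitals below lies 11 bp inside Jk1 and is shown with 2 segments of the Igkv4 family. The Igkv4-80 joint was seen 6 times in each genotype, and the Igkv4-73 joint 2 times in Ku70-null and 4 times in double-null libraries.
Igkv4-80 coding joint: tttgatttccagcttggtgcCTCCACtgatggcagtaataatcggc
Igkv4-73 coding joint: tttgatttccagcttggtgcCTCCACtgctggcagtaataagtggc
A 7-bp overlap can also arise at full-length hybrid joints, where the Jk1 coding end runs into the heptamer shared by the germline Jk1 signal and the Vk signal end. The Igkv4-58 example has the heptamer in capitals.
Igkv4-58 hybrid joint: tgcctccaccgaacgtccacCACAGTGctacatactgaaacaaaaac
Alignments of this kind made up 0.0325%, 0.0352% and 0.0313% of Ku70-null and 0.536%, 0.0292% and 0.525% of double-null junctions, all of them hybrid joints. The class of 6 bp or more above includes 7-bp overlaps of this kind. It was not counted without them, so whether it separates the groups apart from them was not tested. A wider set was then left out, all hybrid joints with microhomology whose Jk1 alignment ran past the coding end. The microhomology shares without that set were 18.5%, 17.4% and 17.9% against 20.7%, 19.3% and 21.1%, still with no overlap.

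Insertions were rare in both genotypes, and more frequent and longer in double-null joints. They made up 1.59%, 0.863% and 1.60% of Ku70-null and 2.62%, 2.63% and 2.72% of double-null junctions (200 and 253 rows), 1.31 points higher with no overlap. Counted as distinct joints, the difference was 0.502 points and the groups overlapped. Their mean length was 3.08, 2.65 and 3.77 bp against 3.86, 6.21 and 6.04 bp. Insertions of 10 bp or more numbered 10 rows in Ku70-null and 55 rows in double-null cells.

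Most double-null inserts were palindromic copies of an uncut coding end, and few Ku70-null inserts were. An insert was counted as palindromic when at least 2 bases mirrored the intact Jk1 end or the intact Vk coding end it touched. Such inserts made up 0.0976%, 0.176% and 0.141% of Ku70-null junctions and 1.93%, 1.37% and 1.65% of double-null junctions (22 and 152 rows), 1.51 points higher with no overlap (exact permutation p = 0.1). As a share of insertions they were 6.12%, 20.4% and 8.82% against 73.5%, 52.2% and 60.5%. The remaining insertions numbered 178 and 101 rows and made up 1.50%, 0.687% and 1.46% against 0.696%, 1.26% and 1.07% of junctions, so those groups overlapped. The palindrome measure was chosen after insert sequences had been seen.

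Palindromic inserts occurred at both ends and were not copies of a few molecules. In double-null cells 72 rows had the palindrome at Jk1 and 88 at Vk, over 43 Vk segments, and in Ku70-null cells 10 and 12 rows over 13 segments. Distinct joints numbered 14 in Ku70-null and 79 in double-null cells, or 0.164%, 0.293% and 0.166% against 1.54%, 1.67% and 1.51% of distinct joints. The largest number of rows for 1 joint was 4 in Ku70-null and 7 in double-null cells. Palindromes of 4 bp or more numbered 10 and 98 rows, and the longest was 15 bp in Ku70-null and 24 bp in double-null cells. Of inserts of 10 bp or more, 2 of 10 were palindromic in Ku70-null and 43 of 55 in double-null cells.

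The joints below are the most frequent or longest of their kind, with the insert in capitals between 20 bases of Jk1 and 20 bases of the Vk side. The first 6 are double-null joints. GT copies the Jk1 tip in a coding joint (4 rows) and in a hybrid joint to the heptamer of Igkv8-16 (7 rows). CTCC mirrors the uncut end of Igkv6-25 (6 rows), and CCTCC that of Igkv3-2 (5 rows). The Igkv12-38 insert of 14 bp lies between 2 uncut ends (5 rows), and the Igkv3-2 insert of 24 bp is the longest (1 row).
Igkv4-72 coding joint: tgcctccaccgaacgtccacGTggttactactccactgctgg
Igkv8-16 hybrid joint: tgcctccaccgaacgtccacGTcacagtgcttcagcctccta
Igkv6-25 coding joint: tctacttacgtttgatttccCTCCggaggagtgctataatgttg
Igkv3-2 coding joint: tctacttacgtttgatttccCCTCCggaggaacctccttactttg
Igkv12-38 coding joint: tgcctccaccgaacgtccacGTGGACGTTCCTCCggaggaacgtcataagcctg
Igkv3-2 coding joint: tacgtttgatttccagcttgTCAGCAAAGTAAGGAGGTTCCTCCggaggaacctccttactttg
In Ku70-null cells the most frequent palindromic joint had CA at an uncut Igkv4-74 end (4 rows), and 1 joint to Igkv4-58 carried a 15-bp copy of the Jk1 end (1 row).
Igkv4-74 coding joint: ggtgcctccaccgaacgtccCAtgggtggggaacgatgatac
Igkv4-58 coding joint: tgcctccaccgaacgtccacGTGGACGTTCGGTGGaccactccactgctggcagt

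**Figure D4:**
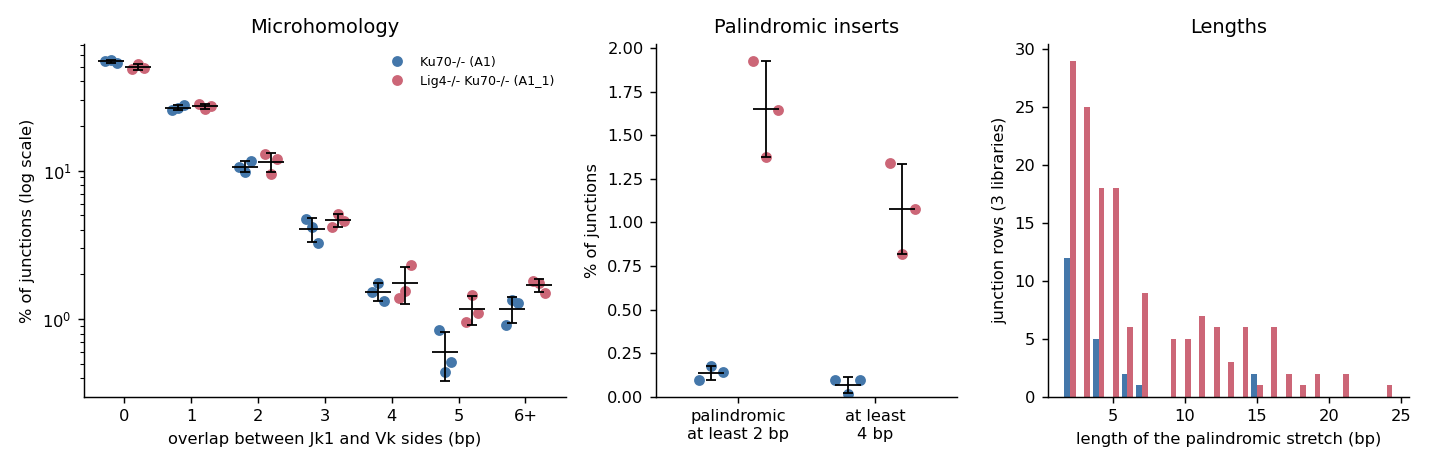
Left, percent of junctions by length of the overlap between the Jk1 and Vk sides (log axis); middle, percent of junctions with a palindromic insert of at least 2 or 4 bp (points are libraries, bars mean and SD, n = 3); right, number of junction rows by length of the palindromic stretch, summed over 3 libraries in the same colours. Palindromic inserts of at least 2 bp lie at 1.37 to 1.93% in double-null and 0.0976 to 0.176% in Ku70-null libraries, and lengths reach 24 bp and 15 bp.

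Vk usage differed at a few segments. Of 162 annotated segments, 101 held enough junctions to be tested with limma, and 5 (4.95%) passed an adjusted p of 0.05, 2 higher (1.98%) and 3 lower (2.97%) in double-null cells. In all, 34 of the 101 (33.7%) had no overlap, 18 higher and 16 lower. The mean log2 shares of the 2 groups correlated with r = 0.80 across segments, which are not independent replicates.

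The 2 segments that rose lie in the proximal and distal parts of the locus. Igkv8-23-1 (chr6:70240427-70240710, inversional, segment 25 from Jk1) held 0.813%, 0.669% and 0.705% of Ku70-null and 4.71%, 1.90% and 2.13% of double-null junctions. It rose by 1.86 on the log2 scale (SE 0.32, limma adjusted p = 5.4e-04). Most of its junctions were hybrid joints, at 88.0%, 81.6% and 73.3% against 93.2%, 90.8% and 83.1%, and in coding joints alone the difference was 1.15 and not called (limma adjusted p = 0.353). Igkv1-132 (chr6:67759700-67760413, deletional, among the most distal) held 0.358%, 0.299% and 0.188% against 1.07%, 1.05% and 0.717%, a rise of 1.74 (SE 0.47, limma adjusted p = 0.0251).

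The 3 segments that fell lie in the middle and proximal parts of the locus. Igkv4-75 (chr6:69156118-69156659, inversional) held 1.17%, 0.951% and 1.19% of Ku70-null and 0.161%, 0.0585% and 0.263% of double-null junctions, or 36, 54 and 76 rows against 3, 2 and 11. It fell by 2.91 on the log2 scale (SE 0.59, limma adjusted p = 0.00154). Igkv3-2 (chr6:70698468-70699067, deletional) held 1.40%, 1.67% and 2.23% against 0.482%, 0.497% and 0.430% and fell by 1.86 (SE 0.34, limma adjusted p = 5.4e-04). Igkv3-10 (chr6:70572633-70573230, deletional) held 2.11%, 4.16% and 3.48% against 0.803%, 1.43% and 1.48% and fell by 1.38 (SE 0.30, limma adjusted p = 0.00324).

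The number of segments called depended on the libraries and the fit. With the run as a block it was 17, and with each distinct joint counted once 17. Without Ku70-null library 3 it was 2, without double-null library 1 it was 9, and without double-null library 3 it was 17. Without Ku70-null library 3, Igkv1-132, Igkv3-10 and Igkv4-75 kept their direction and were no longer called, and so did Igkv1-132 without double-null library 2.

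None of the most used segments was called in either direction. The fit recovered 31.8% of simulated 2-fold changes over all tested segments, and its recovery for the most used ones alone was not computed. Igkv12-44 was among the 5 most used only in Ku70-null cells and Igkv19-93 only in double-null cells. Igkv1-135 held 3.15%, 6.08% and 5.96% in Ku70-null and 3.27%, 4.94% and 3.68% in double-null libraries. Igkv6-32 held 5.27%, 5.00% and 4.75% against 6.16%, 3.71% and 4.49%, with hybrid shares of 67.3%, 49.3% and 50.2% against 80.0%, 81.9% and 71.8%. Igkv11-125 held 3.58%, 4.37% and 3.70% against 4.34%, 4.94% and 5.49%. Igkv12-44 held 3.38%, 4.14% and 3.70% against 2.57%, 4.15% and 3.77%.
Igkv8-30 held 2.31%, 3.95% and 3.87% against 4.93%, 4.21% and 4.25%, and Igkv19-93 held 2.86%, 2.70% and 2.70% against 3.64%, 4.91% and 3.39%, both without overlap between the groups. Igkv4-54, the most used middle segment of Ku70-null cells, held 4.13%, 1.44% and 2.48% against 2.09%, 1.55% and 1.86%.

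By position, junctions of double-null clone A1_1 lay less in the middle of the locus and more at its far end than those of Ku70-null clone A1. Segments were ordered by distance from Jk1 and split into 3 equal blocks of 54 (proximal, middle and distal). The distal block held 25.5%, 27.5% and 26.4% of Ku70-null and 32.2%, 38.2% and 34.0% of double-null junctions. The middle block held 35.6%, 26.7% and 30.7% against 22.0%, 20.2% and 22.5%. Neither overlapped. The proximal block held 39.0%, 45.8% and 42.9% against 45.8%, 41.6% and 43.4%, with overlap (exact permutation p = 0.6, adjusted 0.6). Without overlap, 11 of 33 tested distal segments were higher and 2 lower, 1 of 30 middle segments higher and 10 lower, and 6 of 38 proximal segments higher and 4 lower, where 17.8% and 15.8% of all tested segments were higher and lower. Another pair of clones did not differ alike at the far end. In segments 127 to 144 from Jk1, Ku70-null clone Ku70_B1 held 12.8% to 13.1% and double-null clone Lig4Ku70_C1 13.0% to 13.9%. Wild-type clones A and B lay apart there too, at 5.93% to 7.99% and 11.9% to 12.0%.

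By family, Igkv3 and Igkv4 held less. Igkv3 segments held 6.63%, 10.1% and 9.51% of Ku70-null and 3.32%, 5.35% and 4.28% of double-null junctions, with 2 of 7 tested segments called lower and 0 higher, where 2.97% of all tested segments were called lower and 1.98% higher. Igkv4, the largest family, held 40.5%, 31.3% and 34.7% against 28.3%, 26.6% and 28.6%, with 1 of 28 called lower, a share near that of all tested segments. Igkv8 held 9.33%, 12.0% and 12.2% against 16.9%, 13.1% and 15.0%, with 1 of 10 called higher. None of these 3 families overlapped between the groups. The 10 most used segments of each library held 34.8%, 39.9% and 36.5% against 40.2%, 39.0% and 37.4%, with overlap (exact permutation p = 0.3, adjusted 0.34). The effective number of segments (the exponential of the Shannon entropy) was 63.4, 60.4 and 63.9 against 56.4, 57.7 and 63.1, also with overlap (exact permutation p = 0.2).

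**Figure D5:**
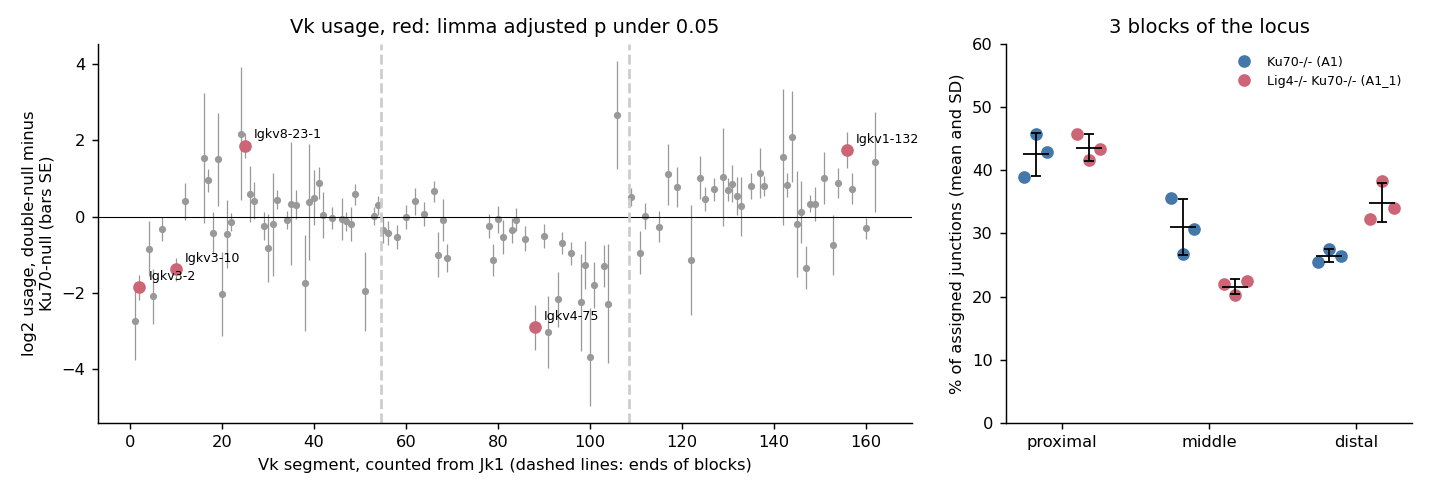
Left, log2 difference in Vk usage (double-null minus Ku70-null, bars SE) for the 101 tested segments in order from Jk1, with the 5 that limma called labelled and dashed lines between the 3 blocks of the locus. Right, percent of assigned junctions in each block (points are libraries, bars mean and SD, n = 3); the middle block lies at 20.2 to 22.5% in double-null and 26.7 to 35.6% in Ku70-null libraries.

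Within single segments the tests called little. Of 16 segments with enough coding joints, Vk end loss was lower in double-null cells in 13 and higher in 3, with 0 called by limma (0%; 3 at an unadjusted p under 0.05; smallest adjusted p = 0.0684), and 4 did not overlap (25%), all lower. Of 27 segments, mean microhomology was longer in 22 with 0 called by limma (1 at an unadjusted p under 0.05), and 5 did not overlap (18.5%), all longer. Jk1 loss was larger in 19 of 27 with 0 called by limma (2 at an unadjusted p under 0.05), and 4 did not overlap (14.8%), 3 larger and 1 smaller. Hybrid percent was higher in 16 of 27 with 0 called by limma (2 at an unadjusted p under 0.05) and 1 with the run as a block, and 5 did not overlap (18.5%), 3 higher and 2 lower.

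Other clones of the same genotypes, Lig4Ku70_C1 (double-null, 377068 raw reads) and Ku70_B1 (Ku70-null, 600000 raw reads), differ in depth and read length, so their values are set side by side without a test. Bait loss could be seen to 48 bp in Ku70_B1, and the shares here cover junctions within that limit. More than 10 bp was lost from the Vk coding end in 43.9% ± 0.333 (SD, n = 3) of Lig4Ku70_C1 and 58.4% ± 0.679 (SD, n = 3) of Ku70_B1 joints. Insertions made up 4.42% and 1.92%, full-length Jk1 ends 2.20% and 0.906%, and direct joints 51.7% and 52.8%. Microhomology made up 17.6% in both, and hybrid joints 30.8% and 30.3%.
Over each clone's own range, palindromic inserts made up 2.40% ± 0.607 of Lig4Ku70_C1 and 0.563% ± 0.028 of Ku70_B1 junctions (SD, n = 3), and 8.19% in wild-type clone A. Junctions over that range numbered 1182 to 1916 per 100000 raw reads in Lig4Ku70_C1 and 8370 to 10135 in Ku70_B1, without overlap. Wild-type clones lay apart in this measure as well, at 28196 to 31752 in clone A and 48529 to 50974 in clone B.

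The called segments did not order these clones alike. Igkv3-10 held 0.853%, 0.732% and 0.969% in Lig4Ku70_C1 and 2.70%, 2.50% and 2.53% in Ku70_B1. Igkv3-2 held 0.314%, 0.681% and 0.526% in Lig4Ku70_C1 against 0%, 0% and 0.002% in Ku70_B1, and Igkv1-132 held 0.090%, 0.017% and 0.152% against 0.608%, 0.729% and 0.652%. Both orders are the reverse of that in clones A1_1 and A1. However, Igkv3-2 was nearly absent from Ku70_B1 (0, 0 and 1 rows), and Igkv1-132 was scarce in Lig4Ku70_C1 (4, 1 and 11 rows). The cause was not tested. Igkv4-75 held 0.090%, 0.170% and 0.249% against 0.177%, 0.280% and 0.225%, and Igkv8-23-1 0.853%, 0.340% and 0.180% against 0.659%, 0.629% and 0.615%, both with overlap.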

How the data were processed

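Per the labels' protocols, libraries were made from genomic DNA by linear amplification from a primer beside Jk1, and the authors normalised each set to a stated number of raw reads. The deposited lists hold 1 row per junction read, giving genome positions in bp, prey orientation and how far along the read each alignment reaches; no count, ratio or score was deposited with them. The submitters' processing notes name Bowtie2 and mm10, and their versions and settings are not given in the sources used here. The members and all lists were chosen with earlier results of these data known.

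Rows were assigned to the nearest of 162 Igkv segments of RefSeq GRCm38.p6 within 1000 bp of its coding end. RefSeq coordinates carry no strand here, so the usual orientation of a segment was taken from wild-type clone A reads. Rows with the same prey position, orientation, Jk1 end and overlap or insertion length were also counted once, as distinct joints. Because the bait end and the read length cap the visible Jk1 loss, values were repeated at a loss of at most 48 bp.

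Single measures were compared by two-sided exact permutation of libraries, with Benjamini-Hochberg adjustment over 17. Usage was the log2 of rows per 10000 assigned junctions plus 1, for segments with at least 10 rows, tested with limma 3.58.1 (trend, R 4.3.3; Python 3.11.15, pandas 2.3.3). On simulated data for this comparison (101 segments), the fit recovered 31.8% of 2-fold and 87.0% of 4-fold changes. The changes were placed at randomly drawn segments, and the simulated spread was a fixed setting not estimated from these data. Segments were named if they were among the 5 most used of either group, were called without overlap, or were the most used proximal, middle or distal one; the segments of printed joints were chosen for those joints after they were seen.

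Same-numbered libraries shared a sequencing run. Their usage deviations correlated at 0.14, -0.10 and -0.01 over 101 segments, so the number did not pair the libraries for usage, and run was used as a block only as an alternative. Over only 3 pairs of same-run libraries, some single measures varied together, with r = 0.996 for junction abundance and 0.995 for hybrid share. Others did not, with r = -0.887 for Vk loss over 10 bp and -1.00 for the proximal block. With so few pairs these r values are descriptions and do not settle whether a measure pairs by run. Alternatives were distinct joints, other thresholds, windows and pseudocounts, equal depth, common Vk weights, and leaving out each library.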

Additional observations from a re-analysis of the deposited data

Results flagged for a closer look

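The point change that went with losing ligase IV was set beside the same contrast in cells with Ku70, Lig4-/- clone A1 against wild-type clone A with 3 libraries each, where genotype and clone are tied too. Insertions made up 61.9% of wild-type, 9.72% of Lig4-/- and 1.35% of Ku70-null junctions. The change in their share was 1.31 points without Ku70 and -52.2 points with Ku70, a gap of 53.5 points. Vk coding ends that lost over 10 bp made up 1.89% of wild-type, 44.5% of Lig4-/- and 66.0% of Ku70-null coding joints. The change was -8.44 points without Ku70 and 42.6 points with Ku70, a gap of -51.1 points. Permuting labels within each contrast gave an exact permutation p of 0.005 for both gaps, the smallest of 400 relabellings (adjusted 0.0175 over 7 measures). Equal point changes were not possible from these baselines: the Ku70-null insertion share could not drop by as much as the wild-type share did, and the Ku70-null Vk share could not gain 42.6 points without passing 100%. The p-values therefore do not show that the effect of ligase IV loss differs between the backgrounds, and the values are given as a description. The Lig4-/- libraries held 35, 37 and 74 junctions, and their shares of such Vk ends ran from 22.8% to 80.0%.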

How the results depend on the processing

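Over 44 results, 451 values were recomputed under alternatives, some of them chosen after seeing the data: 419 counted as the same, 2 reversed, 21 were weaker and 9 stronger. For single measures, the same means only the same direction, since none could pass 0.05, and overlap between the groups was not considered. Junction abundance, for example, kept its direction in 11 of 11 alternatives, of which 1 had no overlap. The number of Vk segments called by limma, 5 as reported, was 17 with the replicate block, 17 with distinct joints, 16 with a pseudocount of 5, 8 without a filter on low counts, 9 at 100 rows or more and 3 in coding joints only. Leaving out 1 library gave 2 to 17. The number of Jk1 positions called, 4 as reported, was 10 with distinct joints and 0 to 5 with 1 library left out. Hybrid percent by segment had 1 call with the replicate block and 0 without. The difference in Jk1 median loss was 0 bp for joints with at most 48 bp lost. The difference in the proximal block of 1.07 points ran from -0.717 to 2.69 points with 1 library left out, below 0 without Ku70-null library 1 (-0.717) or double-null library 1 (-0.032). The causes were not tested. The replicate block changed no other call; its difference in each single measure equals the unpaired one, with an exact sign-flip p of at least 0.25. With 1 library left out, the log2 abundance difference ran from -1.01 (without Ku70-null library 1) to -0.35 (without double-null library 1), and the hybrid share difference from 3.66 points (without Ku70-null library 2) to 9.15 points (without Ku70-null library 1). The share of palindromic inserts stayed without overlap in 13 of 13 alternatives, from 1.01 to 2.00 points, and Vk loss over 10 bp in 15 of 15, from -11.1 to -6.34 points. Mean insertion length with common Vk weights was not run, since too few segments hold insertions. Depth limits single segments most: 3 rows, the limit for a count of 0, are 0.047% to 0.161% of a library.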

Other observations

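Finer bins of the locus, chosen after the 3 blocks had been seen, placed the largest differences in 2 stretches. Segments 91 to 108 from Jk1 held 9.92%, 6.46% and 8.18% of Ku70-null and 4.23%, 2.81% and 3.94% of double-null junctions. Segments 127 to 144 held 7.67%, 6.43% and 6.35% against 11.4%, 12.2% and 11.1%. In both stretches the groups did not overlap. In wild-type clone A the same stretches held 6.37% to 8.06% and 5.93% to 7.99%, and in wild-type clone B 4.96% to 5.00% and 11.9% to 12.0%. The wild-type clones thus lay apart from each other in both stretches. In the other clones they held 7.99% to 8.12% and 12.8% to 13.1% (Ku70_B1), and 5.87% to 6.33% and 13.0% to 13.9% (Lig4Ku70_C1), so the double-null clone was the lower one in the first stretch there too, and both clones were alike high in the second. No test of these bins was run.

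Smaller Igkv families differed without overlap in the same libraries. Igkv11 held 5.76%, 6.01% and 5.09% of Ku70-null and 7.34%, 7.66% and 8.39% of double-null junctions, Igkv14 1.85%, 1.57% and 1.99% against 2.84%, 2.69% and 2.87%, and Igkv13 1.04%, 0.705% and 1.08% against 0.589%, 0.175% and 0.263%. No segment of these 3 families was called by limma (3, 4 and 2 tested), against 4.95% of all tested segments. Igkv2, Igkv16 and Igkv19, each higher in double-null cells, also differed without overlap. All other families, apart from Igkv3, Igkv4 and Igkv8 above, overlapped between the groups.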
